A study of Drosophila melanogaster with 14 samples.

Results

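The somatic cyst lineage genes examined here are tj, zfh1, eya, so, ImpL2, Egfr and ptc, 7 genes chosen by name, out of 13968 protein-coding genes annotated on the chromosomes used. Each was measured over its gene body and in the 10 kb bin that holds its annotated start. The question was when in S phase these genes replicate, and whether their timing differs between cells of the lineage that uses them and germline cells. The libraries are genomic DNA, so no level of expression was measured, and whether the 7 genes are transcribed in either cell type was not tested. In 10 kb bins, all 7 starts lay above the genome's median timing in every replicate. So did 25.6% of all bins and 36.7% of bins on chromosome arms that hold a coding gene start. Against the median of those arm bins, 2 of 7, so and Egfr, lay above it in every replicate, as did 17.1% of them. Bin size mattered, and so, Egfr and ptc alone lay above the genome's median in every replicate in 5, 10 and 50 kb bins. Of all bins of these sizes, 24.4%, 25.6% and 27.6% did. The share of the genome that did at every size was not counted. No gene passed the test for a difference between the cell types.

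In the Drosophila testis, germline stem cells lie beside somatic cyst stem cells, whose daughters wrap the dividing germ cells and are needed for them to differentiate. The ligand Unpaired (Upd) from the niche activates JAK-STAT signalling in both, and forced Upd expression fills the testis with stem-cell-like cells. Replication timing is the order in which parts of the genome are copied during S phase, and in many tissues regions of active genes tend to be copied early.

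Replication was measured by Repli-seq in testis tumours of 2 genotypes. CySC-like nuclei, after cyst stem cells, came from w[1118] flies in which traffic Jam-GAL4, a driver of the somatic cyst lineage, expressed UAS-Upd. GSC-like nuclei, after germline stem cells, came from y[1] w[1118] flies with P{hs70FLP}, in which the germline driver GAL4::VP16-nanos.UTR expressed UAS-Upd. Both genotypes also carried UAS-FRT-H3-GFP-FRT-H3-mKO, a fluorescent histone H3 by which nuclei were sorted, so neither is an unmanipulated control. Ages were not given in the sources used here. Each preparation pooled 100 to 200 testis pairs, which were given BrdU, a thymidine analogue, for 15 minutes at 100 mM. Sorted nuclei were divided by DNA content into fractions of S phase, E for early, EM for early-mid, ML for late-mid and L for late, and their BrdU-containing DNA was enriched with an antibody and sequenced. CySC-like replicate 2 and both GSC-like replicates had all 4 fractions, and CySC-like replicate 1 had E and L, which gives 14 libraries. DNA libraries hold no marker transcripts, so the labelled cell types could not be checked by markers.

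Libraries held 74.1 to 144 M reads in CySC-like replicate 1, 80.3 to 144 M in CySC-like replicate 2, 49.1 to 86.2 M in GSC-like replicate 1 and 0.516 to 7.05 M in GSC-like replicate 2. GSC-like replicate 2 alone has paired-end reads, and its depth, its read layout and what else marks it as a replicate cannot be told apart. Some libraries stood apart. Across bins, the ML library of CySC-like replicate 2 had a Spearman rho with E of 0.80, against 0.035 and -0.39 for ML of the GSC-like replicates. In the library labelled L of GSC-like replicate 1, neighbouring 3 kb windows differed by a median of 0.71 on the log2 scale, against 0.042 from counting alone and 0.18 to 0.57 in the other 13 libraries.

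The 7 genes lie on autosomal arms, outside the pericentromeric regions as set here. Coordinates are 1-based in Release 6 (dm6), with genes from Ensembl release 115. Gene tj (FBgn0000964, 2L:19464267-19467758, plus strand) encodes Traffic jam, a large Maf factor needed in somatic gonad cells, and is the shortest at 3.49 kb. Gene zfh1 (FBgn0004606, 3R:30765926-30789202, plus strand) encodes a zinc finger homeodomain repressor that maintains cyst stem cells. Gene eya (FBgn0000320, 2L:6527447-6546976, minus strand) encodes the co-activator Eyes absent, and so (FBgn0003460, 2R:7419350-7434872, plus strand) encodes Sine oculis, the homeodomain factor that binds it. Both act in differentiating cyst cells. Gene ImpL2 (FBgn0001257, 3L:4224006-4236147, minus strand) encodes a secreted protein that binds insulin-like peptides. Gene Egfr (FBgn0003731, 2R:21522420-21559977, plus strand) encodes the receptor by which cyst cells receive the germline's EGF signal, and is the longest at 37.6 kb. Gene ptc (FBgn0003892, 2R:8649649-8665223, plus strand) encodes Patched, the Hedgehog receptor.

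These genes were longer than most, with a median of 15.6 kb against 2.16 kb over all coding genes. Their start bins had a GC content of 42.4% to 45.2%, near the median of 43.2% for arm bins with a coding start. A median of 14 coding genes started within 50 kb of each, against 15 for all coding genes on the arms. The start bin covers the annotated 5′ end only. Further transcript starts lie 10.2 to 24.2 kb away in ImpL2, eya, zfh1 and Egfr, whereas tj, so and ptc have 1 start each.

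Signal is given as scaled RPKM, the number of reads in a window divided by its length in kb and by the M reads in the library, with each library scaled so that its median autosomal arm bin is 5. In CySC-like cells the start bins were low in L. All 7 lay below 5 in both L libraries, from 3.07 to 3.75 in replicate 1 and from 3.49 to 4.46 in replicate 2. Of arm bins with a coding start, 35.0% and 34.4% lay above 5 in these libraries. In E, 5 of 7 lay above 5 in replicate 1 and 2 of 7, eya and so, in replicate 2, against 46.1% and 44.2% of such bins. In GSC-like cells, 7 of 7 lay above 5 in E of replicate 1 and 6 of 7, all but eya, in E of replicate 2, against 44.3% and 54.6% of such bins. In GSC-like L, 2 of 7, tj and eya, exceeded 5 in replicate 1 and 3 of 7, tj, zfh1 and so, in replicate 2, against 35.8% and 33.3%.

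Among the transcription factor genes, tj had 3.69 and 4.73 in E and 3.38 and 3.86 in L of CySC-like replicates 1 and 2, against 6.58 and 8.73 in E and 6.03 and 5.21 in L of GSC-like replicates 1 and 2. Both E values of tj in GSC-like thus lay above both in CySC-like, and so did both L values. The share of all bins separated in this way in E or in L was not counted, so no trait of tj is read from it. Gene zfh1 had 5.94 and 4.60 in E and 3.75 and 4.46 in L of CySC-like, against 5.53 and 6.38 in E and 4.93 and 6.90 in L of GSC-like. Its GSC-like replicate 2 was the only replicate of any of these genes in which the start bin was higher in L than in E. For eya the values were 5.65 and 5.45 in E and 3.26 and 4.22 in L of CySC-like, against 6.83 and 4.60 in E and 6.03 and 4.13 in L of GSC-like. For so they were 6.57 and 6.51 in E and 3.08 and 3.97 in L of CySC-like, against 7.08 and 6.77 in E and 4.54 and 5.07 in L of GSC-like. Of these 4 genes so was the most even between replicates, with every E library between 6.51 and 7.08.

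Among the signalling genes, ImpL2 had 4.59 and 4.18 in E and 3.08 and 4.16 in L of CySC-like, against 6.00 and 6.89 in E and 3.43 and 4.36 in L of GSC-like. In CySC-like replicate 2 its E and L values were nearly equal. The receptor gene Egfr had 6.49 and 4.68 in E and 3.07 and 3.49 in L of CySC-like, against 6.78 and 5.45 in E and 2.90 and 4.13 in L of GSC-like. It was higher in E in all 4 replicates. The other receptor gene, ptc, had 6.70 and 4.40 in E and 3.22 and 4.20 in L of CySC-like, against 5.08 and 6.06 in E and 4.23 and 3.53 in L of GSC-like. In ptc the wide gap between E and L was in CySC-like replicate 1 and GSC-like replicate 2.

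**Figure D1:**
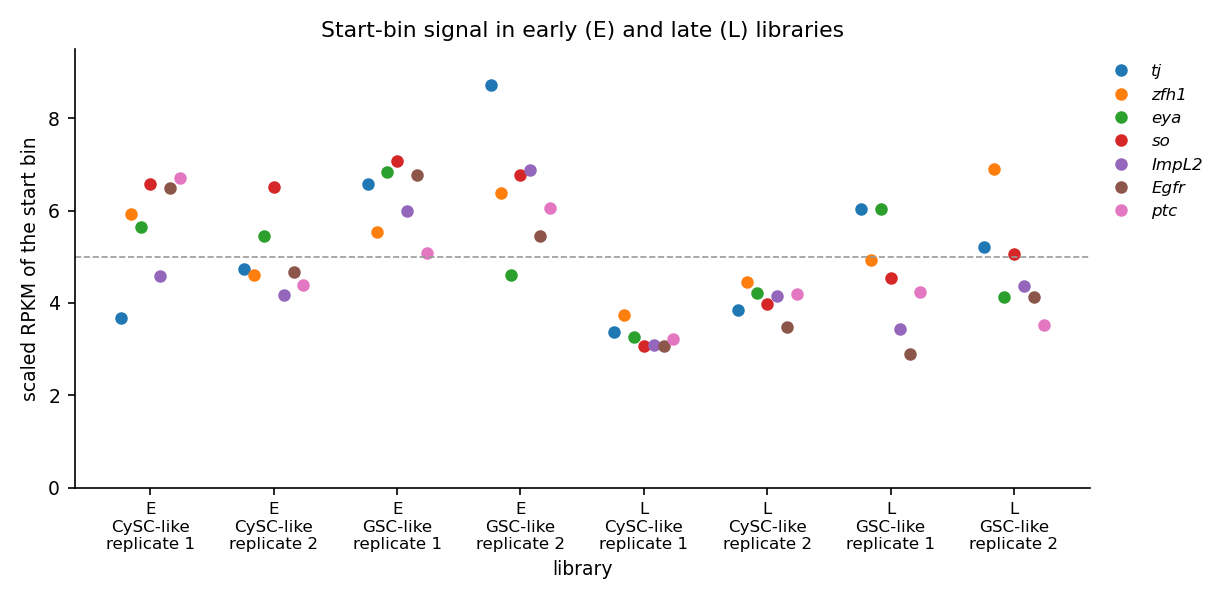
Scaled RPKM of the 10 kb start bin (vertical axis, from 0) of each of the 7 genes in the 8 E and L libraries (horizontal axis), 1 point per gene and library. The dashed line is the median autosomal arm bin, 5 scaled RPKM, and all 7 genes lie below it in both CySC-like L libraries.

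For timing, 0.1 was added to the scaled RPKM of E and of L in each replicate, and the log2 of their quotient is written log2(E/L). Higher is earlier, 0 means that a bin keeps the same place relative to the median arm bin in E and L, and the added 0.1 slightly understates low bins. The start-bin value was above 0 in 27 of 28 gene-by-replicate cases, against 44.7% over all bins and 59.0% over arm bins with a coding start. Of the 7 genes, 6 were above 0 in all 4 replicates, where 19.0% of bins and 28.0% of arm bins with a coding start were. The exception was zfh1. All 7 lay above the median of all bins in every replicate, as did 25.6% of bins and 36.7% of arm bins with a coding start. Set against arm bins with a coding start alone, 6 and 4 of 7 exceeded the median in CySC-like replicates 1 and 2, and 7 and 5 of 7 in GSC-like replicates 1 and 2. Only so and Egfr did in all 4 replicates, a share to set beside 17.1% of such bins.

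The bin size decided how many of the genes were early in every replicate. In 5 kb bins 3 of 7, so, Egfr and ptc, were above 0 and above the median bin in all 4 replicates. Of all 5 kb bins, 18.5% were above 0 and 24.4% above the median bin in every replicate. Gene ptc there had 0.00098 in CySC-like replicate 2. Genes tj, zfh1, eya and ImpL2 each had at least 1 value below 0, such as -0.27 for tj and -0.33 for eya in GSC-like replicate 1. In 50 kb bins 6 of 7 met both measures, all but zfh1, which had -0.22 and -0.13 in the GSC-like replicates. Of all 50 kb bins, 19.3% and 27.6% met them. Correction of the ratios for GC content left so, ImpL2, Egfr and ptc above 0 in every replicate, and all 7 above the median bin. After that correction 16.0% and 24.8% of bins met these measures.

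By mean log2(E/L) of the start bin, the order in CySC-like was so (0.88), Egfr (0.74), eya (0.57), ptc (0.55), zfh1 (0.35), ImpL2 (0.28) and tj (0.21). In GSC-like it was Egfr (0.80), ImpL2 (0.72), so (0.52), ptc (0.51), tj (0.43), eya (0.16) and zfh1 (0.025). Each gap between neighbours in these orders was smaller than the limma standard error of a mean, 0.44 to 0.47, so neighbours do not differ beyond their spread. The median of the 7 genes was 0.77 and 0.29 in CySC-like replicates 1 and 2, against 0.26 and 0.41 in GSC-like replicates 1 and 2. The CySC-like replicates were thus farther from each other than the cell types were on average.

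No start bin passed the test for E against L. In limma with Benjamini-Hochberg adjustment over 13745 bins, the lowest adjusted p in CySC-like was 0.17, for so, and 0.269% of bins were called higher and 14.2% lower in E. The lowest in GSC-like was 0.211, for Egfr, where 1.98% of bins were called higher and 22.4% lower in E. At an unadjusted p under 0.05 in either direction there was 1 of the 7 genes in CySC-like, so, against 3722 of 13745 bins. In GSC-like there were 0 of the 7, against 4918 of 13745 bins. No trait of the genes is read from these counts. Some settings changed this. In CySC-like so passed with ratios standardized to one spread (limma adjusted p = 0.032), quantile normalized ratios and voom on recovered reads, where 4.05%, 5.98% and 6.64% of bins were called higher in E. In GSC-like the balance of calls turned with the scaling. With libraries scaled by the mean over all bins, ImpL2 and Egfr passed (limma adjusted p = 0.032 and 0.025) among 17.8% of bins called higher, with 12.4% lower. Without scaling these and so passed among 21.1% higher, with 8.48% lower.

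Start-bin timing was then compared between the cell types, as CySC-like minus GSC-like. The difference was positive for 4 of 7 genes, against 54.4% of bins, and the interval of each included 0. For eya, log2(E/L) was 0.77 and 0.36 in CySC-like and 0.18 and 0.15 in GSC-like, a difference of 0.40 ± 0.64 (limma SE, n = 2 each). For so it was 1.07 and 0.70 in CySC-like and 0.63 and 0.41 in GSC-like, a difference of 0.36 ± 0.62. Both CySC-like replicates of eya and so lay above both GSC-like replicates, a pattern found in 21.9% of bins. ImpL2 had 0.56 and 0.0066 in CySC-like and 0.79 and 0.65 in GSC-like, a difference of -0.44 ± 0.66. It alone had both CySC-like replicates below both GSC-like replicates, as 14.9% of bins did. Without CySC-like replicate 1 the differences were 0.20 for eya, 0.18 for so and -0.71 for ImpL2, and without CySC-like replicate 2 they were 0.61, 0.55 and -0.16.

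In the remaining genes the replicates of the cell types overlapped. Gene tj had 0.12 and 0.29 in CySC-like and 0.12 and 0.73 in GSC-like. Gene zfh1 had 0.65 and 0.043 in CySC-like and 0.16 and -0.11 in GSC-like. Egfr had 1.06 and 0.41 in CySC-like and 1.20 and 0.39 in GSC-like, nearly the same pair of values in both cell types. For ptc they were 1.04 and 0.064 in CySC-like and 0.26 and 0.76 in GSC-like, where the replicates of each cell type were farther apart than the means. The differences were -0.22 for tj, 0.32 for zfh1, -0.060 for Egfr and 0.040 for ptc.

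**Figure D2:**
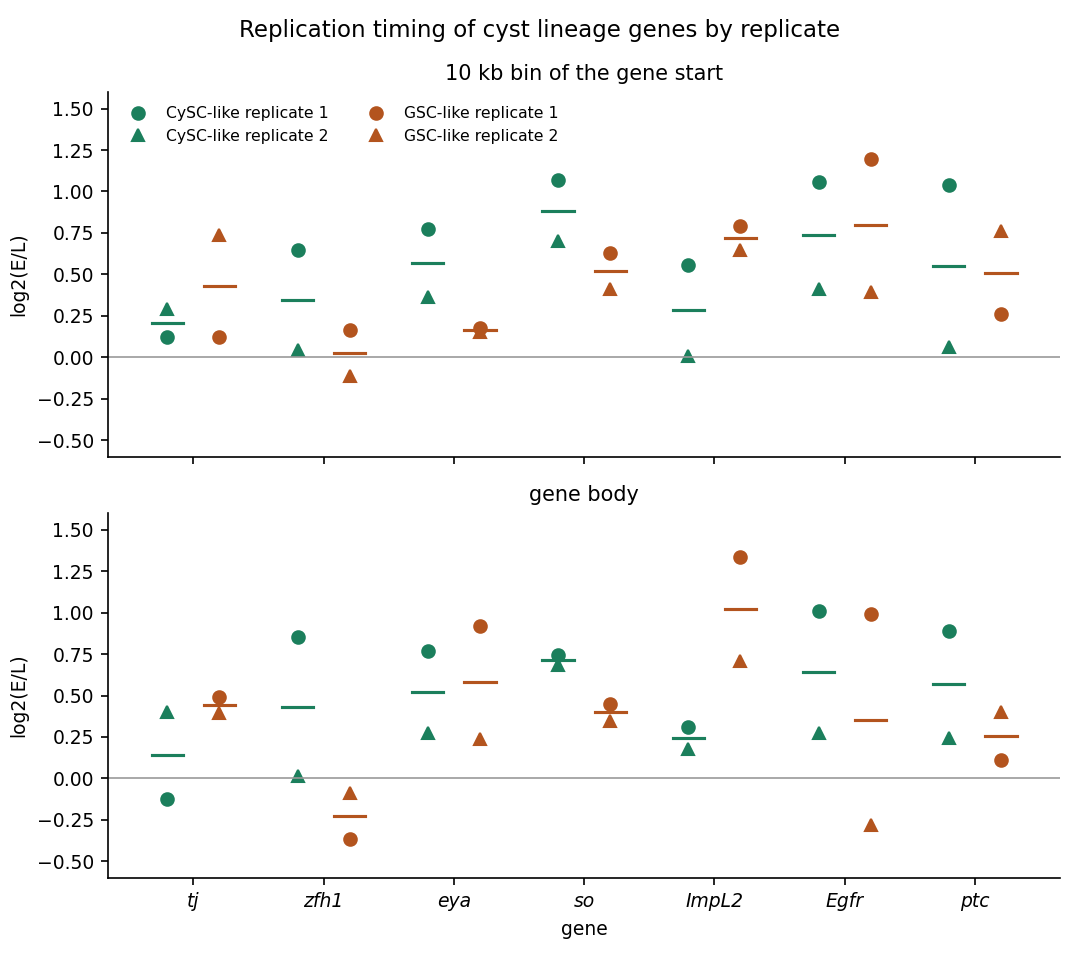
log2(E/L) (vertical axis) of the start bin (upper panel) and the gene body (lower panel) of each gene (horizontal axis), with 1 symbol per replicate and a bar at the mean of 2 replicates. CySC-like is drawn left of GSC-like for each gene, and in the start bins only zfh1 in GSC-like replicate 2, at -0.11, lies below 0.

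With limma and Benjamini-Hochberg adjustment over all bins, the adjusted p of the 7 start bins was 0.974 to 0.997, and 0% of the 13745 bins were called in either direction. At an unadjusted p under 0.05 there were 0 of the 7 genes and 7.18% of bins. The intervals were wide. For so the 95% interval ran from -0.85 to 1.58 and for ImpL2 from -1.74 to 0.86, so a difference of 1 on the log2 scale in at least one direction was within every interval. The median difference of the 7 genes was 0.040, against 0.074 over all bins and -0.032 over arm bins with a coding start. With 2 replicates against 2, an exact permutation test could not reach the threshold, so none was run.

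**Figure D3:**
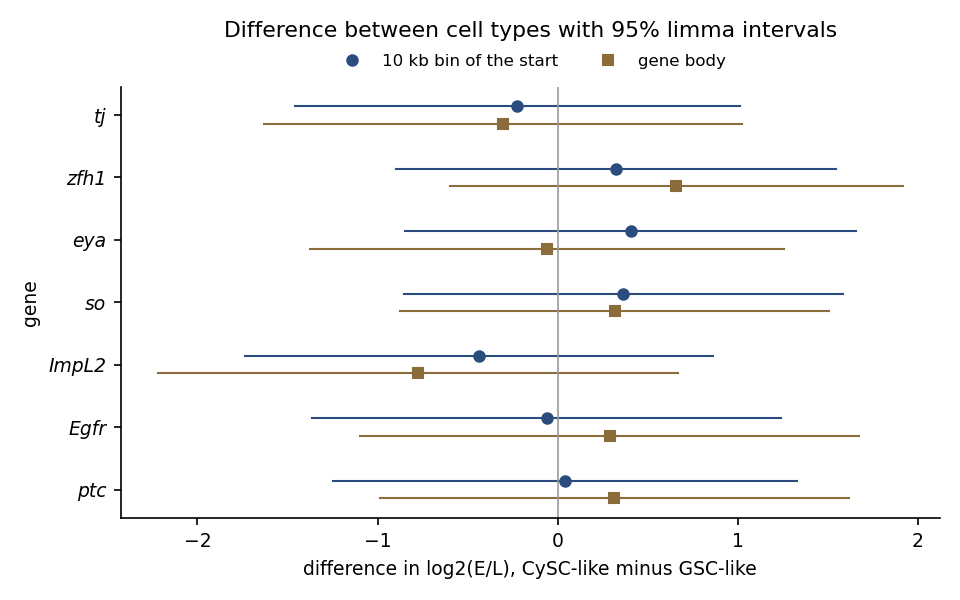
Difference in log2(E/L), CySC-like minus GSC-like (horizontal axis), for each gene (vertical axis), with circles for the start bin, squares for the gene body and lines for the 95% limma intervals. Every interval includes 0, and the points of both measures lie on the same side of 0 for all genes but eya and Egfr.

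Over the gene bodies, 4 of 7 genes (eya, so, ImpL2 and ptc) were above 0 in all 4 replicates, against 29.4% of 13132 coding gene bodies. The median of the 7 bodies was 0.77 and 0.27 in CySC-like replicates 1 and 2, against 0.44 and 0.13 over all bodies. In GSC-like it was 0.49 against 0.19 in replicate 1, but lower than over all bodies in replicate 2, at 0.34 against 0.59. The cell types were separated for 3 genes. Gene zfh1 had 0.85 and 0.013 in CySC-like and -0.36 and -0.090 in GSC-like, a difference of 0.66 ± 0.64 (limma SE, n = 2 each), with all CySC-like values above 0 and all GSC-like values below. That difference was 0.24 without CySC-like replicate 1 and 1.08 without CySC-like replicate 2. For so, log2(E/L) was 0.74 and 0.69 in CySC-like and 0.45 and 0.34 in GSC-like, a difference of 0.32 ± 0.61. Both CySC-like replicates lay above both GSC-like replicates in these genes, as in 13.3% of gene bodies. The share of bodies with the opposite signs seen in zfh1 was not counted. ImpL2 had 0.31 and 0.18 in CySC-like and 1.34 and 0.71 in GSC-like, a difference of -0.77 ± 0.74, in the direction found in 21.3% of gene bodies.

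Gene so lay above and ImpL2 below in both measures. Gene eya was separated in its start bin only, since its body had 0.77 and 0.27 in CySC-like against 0.92 and 0.24 in GSC-like. The start bin holds only the annotated 5′ end, and 2 measures of one gene share reads, so they are not independent. The bodies of the other genes overlapped. Those of tj had -0.12 and 0.40 in CySC-like and 0.49 and 0.40 in GSC-like. Egfr had 1.01 and 0.28 in CySC-like and 0.99 and -0.28 in GSC-like, so that 1 GSC-like replicate lay below 0. The body of ptc had 0.89 and 0.24 in CySC-like and 0.11 and 0.40 in GSC-like. The limma adjusted p was 0.999 for all 7 bodies, while 0.00761% of bodies were called higher and 0.0305% lower in CySC-like, none of them among the 7. At an unadjusted p under 0.05 there were 0 of the 7 and 6.25% of bodies. In the test of E against L, 0.0533% of bodies were called higher and 2.51% lower in E of CySC-like, and 5.29% higher and 4.45% lower in E of GSC-like. None of the 7 was among them, with the lowest limma adjusted p 0.428 for so in CySC-like and 0.189 for ImpL2 in GSC-like. Scaled by the mean over all bins, the body of ImpL2 passed in GSC-like (limma adjusted p = 0.043), among 13.3% of bodies called higher and 1.49% lower. It also passed without scaling (limma adjusted p = 0.028), among 23.5% called higher and 1.25% lower. The median body difference of the 7 genes was 0.29, against -0.13 over all bodies. It was -0.021 with the mean over all bins, against -0.44 over all bodies, and -0.12 without scaling, against -0.54. Without CySC-like replicate 1 it was -0.042, and without GSC-like replicate 2 it was -0.35, so its sign depended on the scaling and on those replicates.

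The libraries of all 4 fractions show where in S phase the start bins were highest. In CySC-like replicate 2, tj, zfh1, eya, so and Egfr were highest in E and ImpL2 and ptc in EM. In GSC-like replicate 1, 6 of 7 were highest in E and eya in EM, at 6.90 scaled RPKM against 6.83 in E. In GSC-like replicate 2, tj, ImpL2 and ptc were highest in E, eya, so and Egfr in EM, and zfh1 in L. Over all bins E was the highest fraction in 21.6%, 29.2% and 33.7% in the same replicates, and over arm bins with a coding start in 26.3%, 39.9% and 48.9%. None of the 7 was highest in ML in any of these replicates, where 23.7%, 30.8% and 26.0% of bins were. Of arm bins with a coding start, 32.4%, 18.7% and 25.3% were.

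In CySC-like replicate 2 and GSC-like replicate 2, most of these genes were lowest in ML. Of the 7, 6 had their lowest signal in ML of CySC-like replicate 2, against 45.4% of bins, and 6 in ML of GSC-like replicate 2, against 47.2% of bins. Of arm bins with a coding start, 33.0% and 52.8% were lowest in these libraries. In GSC-like replicate 1, 3 of 7 (tj, eya and so) were lowest in ML, against 17.2% of bins and 22.6% of arm bins with a coding start. The 7 genes ran from 3.73 to 5.07 in that library. The lowest value of all was tj in ML of CySC-like replicate 2, at 1.64, where E, EM and L held 4.73, 4.50 and 3.86. That gene had 8.73, 5.79, 2.69 and 5.21 in E, EM, ML and L of GSC-like replicate 2. The ML library of CySC-like replicate 2 is the one that tracked E across bins, while its EM library had a rho with E of 0.28, and the labels of these 2 libraries may be exchanged, which was not tested. With them exchanged, 6 of 7 would be lowest in EM, tj at 1.64 among them, and ImpL2 and ptc highest in ML. EM and ML of CySC-like have 1 library each, so no spread can be given. In ML of GSC-like replicate 2 the start bins rested on 10 to 29 reads.

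In the libraries labelled EM, eya had 4.95 scaled RPKM in CySC-like replicate 2, against 6.90 and 7.13 in GSC-like replicates 1 and 2, and so had 5.20 against 5.32 and 7.26. Egfr had 3.96 in CySC-like replicate 2, its only EM value below 5, against 5.53 and 5.84 in GSC-like. In ptc the CySC-like value, 5.24, lay between the GSC-like values of 4.20 and 5.39. In EM, 2 of 7 (so and ptc) exceeded 5 in CySC-like replicate 2, against 3 of 7 (eya, so and Egfr) in GSC-like replicate 1 and 7 of 7 in GSC-like replicate 2. Of arm bins with a coding start, 33.2%, 36.3% and 39.9% exceeded 5 in these libraries. With fractions weighted 1 to 4 by signal, the mean S-phase position of the start bins had a median of 2.35 in CySC-like replicate 2, against 2.4 and 2.27 in GSC-like replicates 1 and 2. With EM and ML of CySC-like replicate 2 exchanged, its median would be 2.51, so the position there rests on those labels. With the labels as given, the medians over all bins were 2.51, 2.54 and 2.56. Over arm bins with a coding start they were nearer to those of the 7 genes, at 2.48, 2.47 and 2.36. The earliest position was that of Egfr in GSC-like replicate 1, at 2.15, and the latest that of zfh1 in GSC-like replicate 2, at 2.52.

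**Figure D4:**
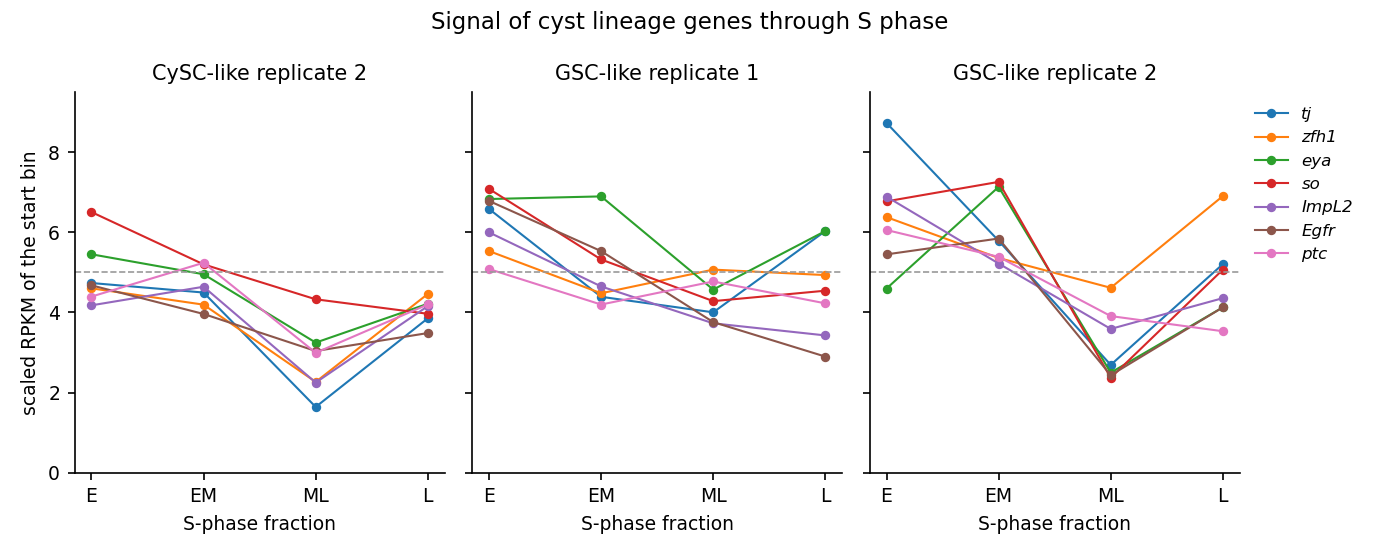
Scaled RPKM of the start bin (vertical axis, from 0) in E, EM, ML and L (horizontal axis) for the 7 genes, 1 line per gene, in the 3 replicates with all fractions. The dashed line is the median autosomal arm bin at 5, and the lowest point of all is tj in ML of CySC-like replicate 2, at 1.64.

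Window values also varied along the genes. Over the 38 windows of Egfr, log2(E/L) ran from 0.38 to 1.58 in CySC-like replicate 1 and from -0.22 to 0.79 in CySC-like replicate 2. In GSC-like replicate 1 it ran from -0.60 to 5.84, and in GSC-like replicate 2 from -1.51 to 1.56. In the latter the median arm window held only 87 reads in E and 20 in L. Counting alone would make neighbouring windows of that L library differ by a median of 0.31 on the log2 scale. In GSC-like replicate 1 the mean of the window values was 2.68 in the 5′ part and 0.84 in the 3′ part. The body value there, 0.99, was instead taken from the mean signal of all windows. The high windows of GSC-like replicate 1 were not present in replicate 2, and they use the uneven L library, whose share of arm windows under 1 scaled RPKM was 4.81%. The E library of GSC-like replicate 2 had a like share, 4.83%. In GSC-like replicate 1 zfh1 ran from -1.33 to 1.76 and ptc from -1.39 to 1.59. The part of the unevenness in these values was not tested. In CySC-like, gene so ran from 0.046 to 1.18 in replicate 1 and from 0.15 to 1.30 in replicate 2, with every window above 0.

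The bodies of the 7 genes differed from their surroundings in no direction common to all replicates. For the 50 kb on either side, log2(E/L) was taken from the mean E and mean L signal. It was above 0 for 7 of 7 genes in both CySC-like replicates and for 6 of 7 in both GSC-like replicates, all but zfh1. The share over the flanks of all genes was not counted. The body was earlier than these flanks in 1 and 4 of 7 genes in CySC-like replicates 1 and 2, and in 4 and 3 of 7 in GSC-like replicates 1 and 2. The share of all genes with a body earlier than its flanks was not counted either, so no trait of the 7 is read from these counts. Gene tj showed the widest gap, with -0.12 in its body against 1.36 in its flanks in CySC-like replicate 1. Its body rests on 4 overlapping windows of 3 kb that reach beyond the gene, against 12 to 38 windows in the other genes. In CySC-like replicate 2 the tj body had 0.40 against 0.27. ImpL2 had 0.31 against 1.17 in CySC-like replicate 1, whereas in GSC-like replicate 1 its body, at 1.34, was above its flanks, at 0.44.

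**Figure D5:**
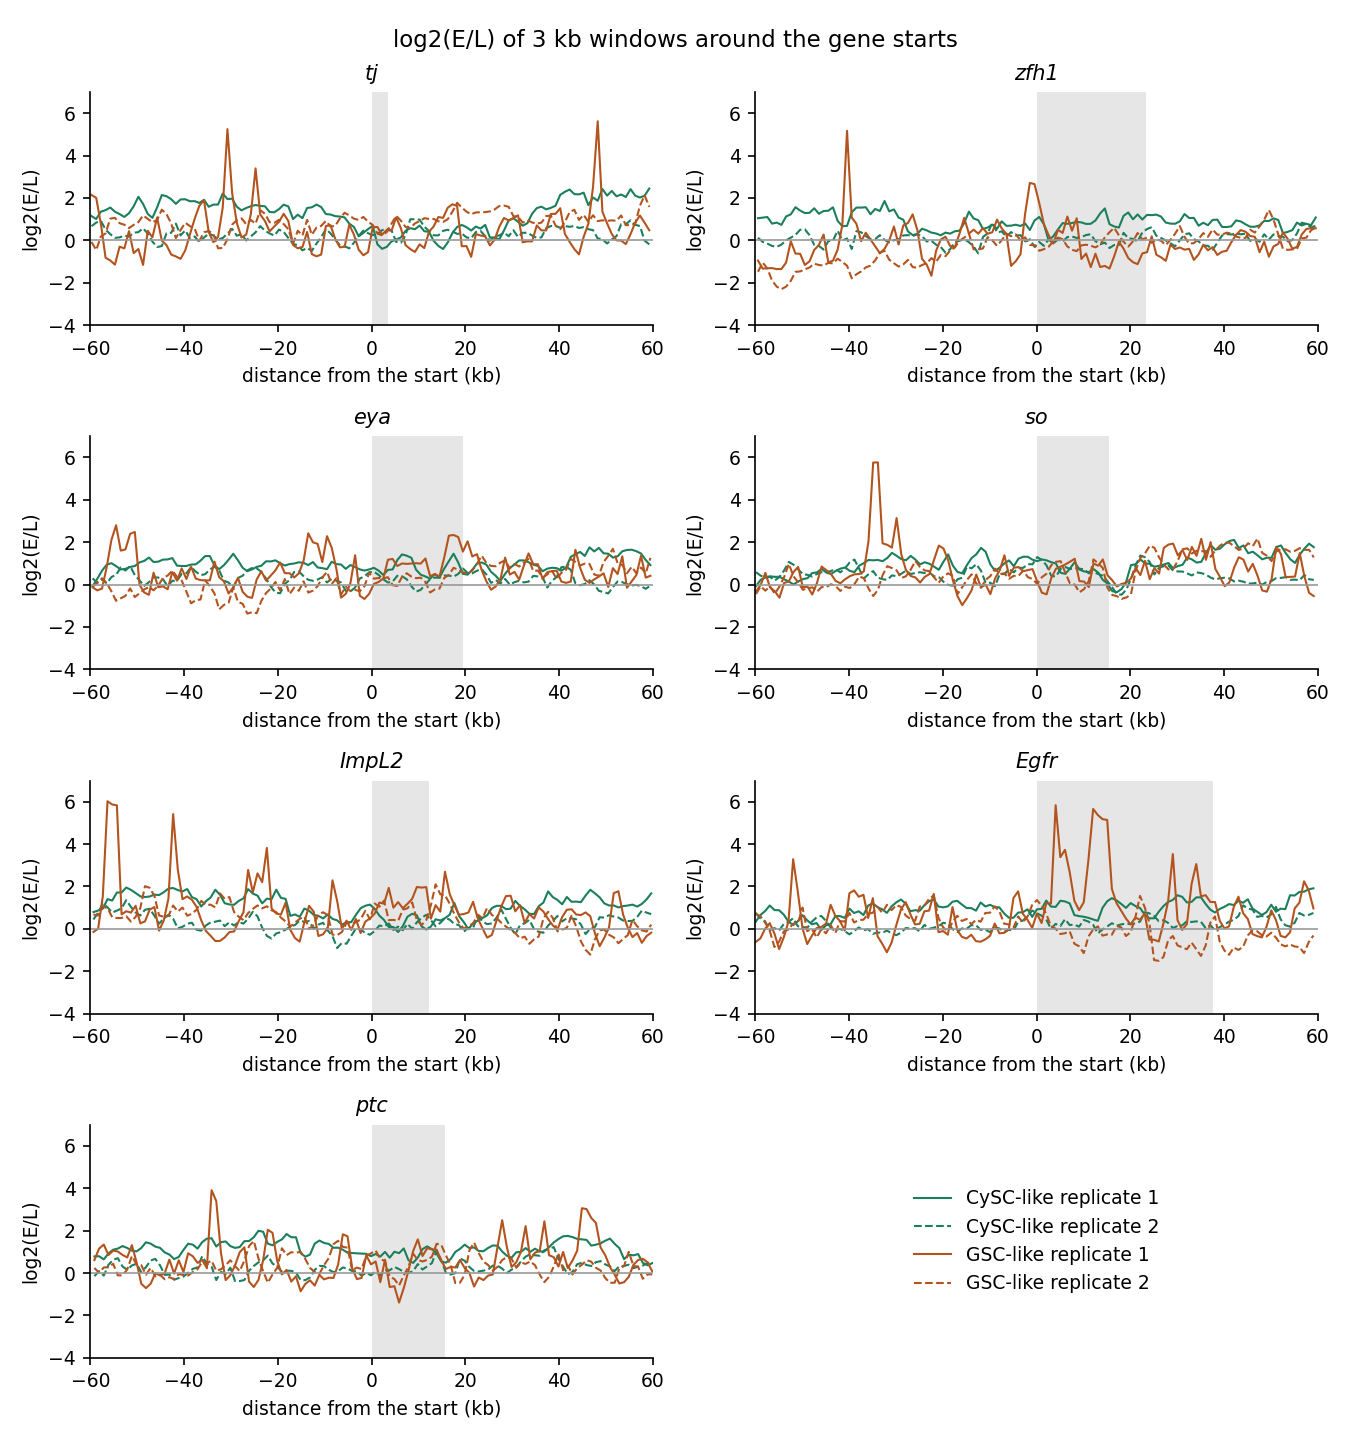
log2(E/L) of 3 kb windows (vertical axis) against distance from the annotated start, positive downstream, in kb (horizontal axis), 1 panel per gene and 1 line per replicate, with the gene body shaded. In GSC-like replicate 1 single windows reach high values, as in the 5′ part of Egfr at 5.84, and the other replicates do not show them.

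Adjacent genes gave a mixed picture. Of the 14 genes next to the 7, CG30289 shares the start bin of Egfr. Both CySC-like replicates lay above both GSC-like replicates in the start bins of Npc2h beside zfh1, CG1701 beside so and twz beside Egfr. Their differences were 0.74, 0.75 and 1.01, and 21.9% of all bins were separated in this way. The start bin of CG11123, on the other side of so, had 0.95 and 0.90 in CySC-like and 0.98 and 1.13 in GSC-like. Its difference was -0.13, in the opposite direction to so, and 14.9% of bins were separated in that direction. The lowest limma adjusted p among the 14 was 0.835, for twz.

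Likeness was measured as the Euclidean distance of log2 scaled signal over the 14 libraries, among coding genes on other arms, and the 2 nearest are named for each gene. For tj they were croc and CG14506, for zfh1 pav and Cyp4ac1, for eya osk and CG30460, and for so spz3 and fln. For ImpL2 they were lds and CG14502, for Egfr CG4408 and CG17732, and for ptc alpha-Est10 and Tnks. Distances ran from 0.45, for croc and tj, to 0.82, for CG17732 and Egfr, against medians of 2.26 to 2.70 over all genes. Among the 7 themselves, ImpL2 and ptc were nearest, at 0.95, followed by eya and so, at 0.99, and tj and so were farthest, at 1.81. The 2 nearest genes were picked for the smallest distance over all coding genes on other arms. That they lie nearer than the other members follows from this choice. Every pair of the 7 lay below the medians of 2.26 to 2.70 over all genes.

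Other genes of the same pathways were read from the same fit. Over all bins 54.4% of differences were positive, with a median of 0.074. Over arm bins with a coding start the median was lower, at -0.032, and their share of positive differences was not counted. These values stand beside every list here and in the next paragraph. In the list of EGFR signalling, 7 of 18 start bins had a positive difference, and the median was -0.15. The extremes were kek1, a feedback inhibitor of the receptor, at 1.58, and rl, the MAP kinase gene, at -0.81. In the Hedgehog list 6 of 13 were positive with a median of -0.11, from dally, a glypican gene, at 1.88 to disp, which releases the ligand, at -1.0. Both CySC-like replicates of dally, 1.07 and -0.46, lay above both GSC-like replicates, -1.08 and -2.06, as in 21.9% of bins. The limma adjusted p of dally, 0.382, was the lowest of all lists.

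Of the partners of eya and so in eye specification, 1 of 7 was positive, dac, at 0.32, and the lowest was dan, at -1.16, with a list median of -0.51. The insulin list had 4 of 13 positive and a median of -0.24, from Ilp8, an insulin-like peptide gene, at 0.31 to Sdr, a secreted decoy of the insulin receptor, at -0.92. In the list of JAK-STAT and co-acting cyst stem cell regulators, 4 of 8 were positive with a median of 0.0024. Stat92E, the transcription factor of the pathway, was lowest at -0.76, and upd1 was highest at 1.71. The UAS-Upd transgene of both genotypes can add reads over upd1, and its part in that value was not tested. The germline list had 2 of 8 positive and a median of -0.47, from aub, at 0.19, to AGO3, at -1.18, both piRNA pathway genes. No gene of these lists passed limma's adjusted threshold, against 0% of bins called, and at an unadjusted p under 0.05 there were 3 of 67, or 4.48%, namely kek1, dally and upd1, against 7.18% of bins.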

How the data were processed

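The deposited table holds 1 column per library in windows of 3 kb stepping by 1 kb. Its unit was read from the values as RPKM made by the authors: with the library's total reads, 100% of 3 kb windows came out as whole reads within 0.01. Bowtie2 2.4.5 and dm6 are named in the submitters' processing notes. How duplicate or multiply matching reads were handled is not given in the sources used here. Counting errors cover counting only, as reads carried no molecular identifiers. Lengths of the 7 chromosomes used equalled dm6. That replicates came from separate preparations follows from the design text.

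Windows were averaged into 10 kb bins or gene bodies, libraries scaled to a median autosomal arm bin of 5 RPKM, and log2(value + 0.1) computed. A filter removed 12 of 13757 bins, those with no signal in at least 4 of the 8 libraries of E and L. The median was chosen over the mean of all bins because the 100 highest windows hold 22.0% of the signal of L of GSC-like replicate 2. limma 3.58.1 (R 4.3.3; lmFit, eBayes with trend) compared 2 ratios with 2, adjusted by Benjamini-Hochberg over all bins or bodies at 0.05. It was run on simulated data with the same replicate spread for all bins. Only its mean estimates were checked there against a bound, not its share of calls. E and L are paired by replicate in the ratio, per the design text; their deviations from cell-type means had correlations of -0.06 in CySC-like and 0.51 in GSC-like. Python 3.11.15, numpy 2.4.6, pandas 2.3.3, scipy 1.17.1, statsmodels 0.14.6 (lowess, span 0.3) and matplotlib 3.10.9 were used.

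The members, pathway lists, settings and tests were chosen with earlier results of these data known. Named were all 7 genes, the highest and lowest of each list, 2 most alike genes on other arms and adjacent genes; kek1, dally and upd1 are also named as the only list genes past an unadjusted 0.05. The bounds of pericentromeres were 22 Mb on 2L and X, 23 Mb on 3L, 6 Mb on 2R and 5 Mb on 3R. A count test planned for raw counts was not run since the table is RPKM; voom on recovered reads was added. Other alternatives covered scaling, pseudocount, filter, trend, bin size, normalization of ratios, replicate block, replicates left out and GC.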

Additional observations from a re-analysis of the deposited data

Results flagged for a closer look

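The gene body of zfh1 had log2(E/L) above 0 in both CySC-like replicates, at 0.85 and 0.013, and below 0 in both GSC-like replicates, at -0.36 and -0.090. The difference, 0.66, was tested with limma and had an adjusted p of 0.999. It was 0.24 without CySC-like replicate 1, 1.08 without CySC-like replicate 2, 0.34 with libraries scaled by the mean over all bins and 0.25 without scaling. The place of 0 depends on the scaling of E and L libraries, and 1 CySC-like value lies at 0.013. Both CySC-like replicates lay above both GSC-like replicates in 13.3% of gene bodies. The share of bodies with these opposite signs was not counted.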

How the results depend on the processing

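No alternative called a member for the difference between cell types, and the lowest limma adjusted p was 0.614. Called bins, 0 in the main setting, were 14 scaled by the mean over all bins, 8 without scaling, 11 without the filter, 19 without the trend, 92 with standardized ratios, 1 in 50 kb bins and 53 by voom, and 0 to 540 leaving out 1 replicate. Called gene bodies, 5 in the main setting, were 36 with a pseudocount of 0.01, 20 after GC correction and 0 to 228 leaving out 1 replicate. They were 0 under the 3 other scalings, a pseudocount of 1, no trend, standardized or quantile normalized ratios. The replicate block called 0 bins and 0 bodies, as did the fit with no replicate block. Replicate numbers of the cell types had a correlation of -0.25, and a replicate block with crossed numbers, added after seeing the data, called 151 bins and 133 bodies but no member. For E against L in CySC-like, 1982 bins in the main setting became 861 without scaling, 3840 standardized, 4576 quantile normalized, 4128 by voom, 3445 in 5 kb bins, 482 in 50 kb bins, 0 with no replicate block and 0 to 3501 leaving out 1 replicate. The 1 member then called, with standardized or quantile normalized ratios or voom, was so. In GSC-like 3352 became 1015 with no replicate block, 6523 in 5 kb bins, 698 in 50 kb bins and 61 to 5629 leaving out 1 replicate, and 2 members were called with the mean over all bins and 3 without scaling. The members' median start-bin difference became -0.26 with the mean over all bins and -0.36 without scaling, and ran from -0.14 to 0.53 leaving out 1 replicate. Their median body difference, 0.29, became -0.021 and -0.12 under those scalings and ran from -0.35 to 0.35 leaving out 1 replicate. Members above 0, and above the median bin, in every replicate were 3 in 5 kb bins, against 18.5% and 24.4% of such bins. Signs turned in 30 of 511 single-gene values. Start-bin differences became -0.26 (mean over all bins), -0.36 (no scaling) and -0.043 (quantile) for ptc, -0.089 for zfh1 and -0.040 for so without scaling, 0.0056 (5 kb) and 0.045 (voom) for tj, 0.067 (5 kb) and 0.25 (50 kb) for Egfr and -0.0040 for eya in 50 kb bins. Leaving out 1 replicate they ran from -0.45 to 0.53 for ptc, -0.46 to 0.34 for Egfr and -0.53 to 0.082 for tj. Body differences became -0.021 (mean over all bins) and -0.12 (no scaling) for Egfr, -0.091 for so and -0.088 for ptc without scaling and 0.087 for eya (quantile), and leaving out 1 replicate ran from -0.35 to 0.93 for Egfr, -0.0097 to 0.64 for ptc and -0.40 to 0.28 for eya. In GSC-like the E against L value of zfh1 became -0.057 after GC correction and -0.18 in 50 kb bins, with -0.11 to 0.16 leaving out 1 replicate, and that of eya -0.10 after GC correction and -0.086 in 5 kb bins. The causes were not tested. The low depth of GSC-like replicate 2 left 44 to 115 reads in the shallowest E or L library of each start bin.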
